A study of Mus musculus with 6 samples.

Results

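The genes described here are 10 mouse genes of nitric oxide production, its brakes and its signal through cyclic GMP, namely Nos2, Nos3, Arg1, Arg2, Ddah1, Ddah2, Gucy1a1, Gucy1b1, Pde5a and Prkg1. They were taken by name from a table of raw read counts for 56941 genes, with no threshold on their values, and all 10 passed the filter on low counts that left 17072 genes for testing. RNA was sequenced from 6 samples of lung cells of mouse pups, selected for CD31. Hyperoxia (75% oxygen) was given to the pups behind 3 samples, and room air (21% oxygen) to those behind the other 3, from postnatal day 0 until the lungs were taken on postnatal day 7. CD31 is the endothelial adhesion molecule encoded by Pecam1, and magnetic beads against it were used to pull the cells out of digested lung. Strain and sex of the pups are not given in the labels, which do not say either whether each library is a separate animal or a pool, and p-values therefore reflect only how these libraries scatter.

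Nitric oxide is a gas that endothelial cells make from arginine with the enzyme eNOS, the product of Nos3, and other cells, macrophages among them, with the inducible enzyme iNOS, the product of Nos2. Arginases (Arg1 in the cytosol, Arg2 in mitochondria) use the same arginine, and the hydrolases of Ddah1 and Ddah2 are known for clearing methylated arginines that block the synthases. Nitric oxide binds soluble guanylate cyclase, a pair of subunits from Gucy1a1 and Gucy1b1, and the cyclic GMP it makes activates the protein kinase of Prkg1 until the phosphodiesterase of Pde5a destroys it. In the lung this route relaxes vessels, and in newborns it takes part in the fall of pulmonary vascular resistance and in alveolar growth.

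The start regions of 5 members are shown because the results turn on them: Pde5a was the member called lower, and the Ddah and guanylate cyclase genes are compared as pairs. Each window runs from 250 bases before to 50 bases after the gene start in RefSeq (GRCm38.p6), 5′ to 3′ on the gene's strand. RefSeq windows matched 6 of the 10 members, and for Gucy1a1 the more upstream of its 2 starts is shown. Capitals mark GC boxes (GGGCGG) and the core of the antioxidant response element (TGACNNNGC), searched on both strands; TATAAA and ACGTG, the core of hypoxia response elements, were searched as well and are not in these 5 windows (the downstream start of Gucy1a1 has ACGTG). No match overlaps one of another motif in the Pde5a window.
Pde5a, chr3:122728908-122729207, plus strand: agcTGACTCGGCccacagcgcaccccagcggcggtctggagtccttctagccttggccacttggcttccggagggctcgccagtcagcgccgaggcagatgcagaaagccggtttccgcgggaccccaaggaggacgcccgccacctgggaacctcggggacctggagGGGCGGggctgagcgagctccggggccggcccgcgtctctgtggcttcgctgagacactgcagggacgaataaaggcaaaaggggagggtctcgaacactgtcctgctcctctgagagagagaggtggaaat
Ddah1, chr3:145758442-145758741, plus strand: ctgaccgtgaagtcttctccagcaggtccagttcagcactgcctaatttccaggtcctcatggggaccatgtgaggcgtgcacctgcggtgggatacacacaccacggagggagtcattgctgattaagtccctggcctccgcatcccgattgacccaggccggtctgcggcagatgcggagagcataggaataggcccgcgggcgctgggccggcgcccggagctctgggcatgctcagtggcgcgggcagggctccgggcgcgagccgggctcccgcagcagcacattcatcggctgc
Ddah2, chr17:35058785-35059084, plus strand: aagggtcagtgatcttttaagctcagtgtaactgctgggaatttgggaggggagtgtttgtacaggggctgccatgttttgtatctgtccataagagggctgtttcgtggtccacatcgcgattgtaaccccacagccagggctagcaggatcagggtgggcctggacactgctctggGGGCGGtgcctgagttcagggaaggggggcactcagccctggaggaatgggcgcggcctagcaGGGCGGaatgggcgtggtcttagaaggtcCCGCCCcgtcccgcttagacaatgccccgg
Gucy1a1, chr3:82145601-82145900, minus strand: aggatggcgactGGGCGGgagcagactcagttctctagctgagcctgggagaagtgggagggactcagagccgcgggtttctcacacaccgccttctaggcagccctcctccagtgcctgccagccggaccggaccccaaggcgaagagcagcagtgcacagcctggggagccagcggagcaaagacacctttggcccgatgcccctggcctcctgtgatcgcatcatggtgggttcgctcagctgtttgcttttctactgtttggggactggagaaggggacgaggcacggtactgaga
Gucy1b1, chr3:82074662-82074961, minus strand: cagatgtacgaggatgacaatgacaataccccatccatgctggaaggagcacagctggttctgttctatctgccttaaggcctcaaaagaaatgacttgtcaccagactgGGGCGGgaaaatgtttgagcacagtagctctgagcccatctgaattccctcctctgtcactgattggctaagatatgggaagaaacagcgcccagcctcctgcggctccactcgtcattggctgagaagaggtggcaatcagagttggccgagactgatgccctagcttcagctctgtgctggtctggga

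The Ddah2 window held 3 GC boxes, and those of Pde5a, Gucy1a1 and Gucy1b1 held 1 each. Of 32817 such windows across the genome, 35.6% held a GC box, 12.4% the antioxidant core, 13.6% TATAAA and 19.6% ACGTG. The Pde5a window was the only one of the 5 with the antioxidant core. GC content was 66.3% for Pde5a, 65.7% for Ddah1, 59.7% for Ddah2, 62.3% for Gucy1a1 and 52.3% for Gucy1b1, against a median of 52.7% over all windows. These matches describe the letters only, and the reads do not measure binding there.

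Total counts per library ran from 39379793 to 42343192. Levels below are in CPM (reads of a gene relative to the library total after TMM scaling), and mean ± SD has n = 3 in each group. Endothelial markers were abundant in every library: the summed level of 12 pan-endothelial genes was 13369 to 18174 CPM in hyperoxia and 14349 to 20262 CPM in room air, lowest in hyperoxia 2 and in room air 3. Other lung cells were present too. Alveolar type 2 markers summed to 13847 to 16895 CPM in hyperoxia and 12376 to 19372 CPM in room air. All 8 alveolar type 1 markers rose, with sums of 5163 to 6772 CPM in hyperoxia and 2145 to 3010.4 CPM in room air. Of 11 macrophage markers 3 rose (Cd68, Marco and Itgax), and their list summed to 259 to 345 CPM in hyperoxia and 169.6 to 239 CPM in room air. Reads of 4 Y-linked genes were abundant in hyperoxia 2 and all 3 room air libraries, and at most 2 counts in hyperoxia 1 and 3. In whole populations of sorted cells, fewer cells of a type and less RNA per cell cannot be told apart.

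Of the 10 members, 1 was called lower in hyperoxia and 0 higher (edgeR's quasi-likelihood test, adjusted p below 0.05 by Benjamini and Hochberg over all genes tested). Across all genes 4.41% were called lower and 6.77% higher, so that 1 of 10 is near the background. At an unadjusted p below 0.05, 1 member was higher (Arg2) and 2 were lower (Pde5a and Ddah2). DESeq2 called 0 higher and 2 lower, and limma-voom 0 higher and 1 lower. The median log2 fold change was -0.12 over the members and -0.01 over all genes. The groups did not overlap for Pde5a and Ddah2, both lower in hyperoxia, where 14.4% of all genes were lower without overlap.

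**Figure D1:**
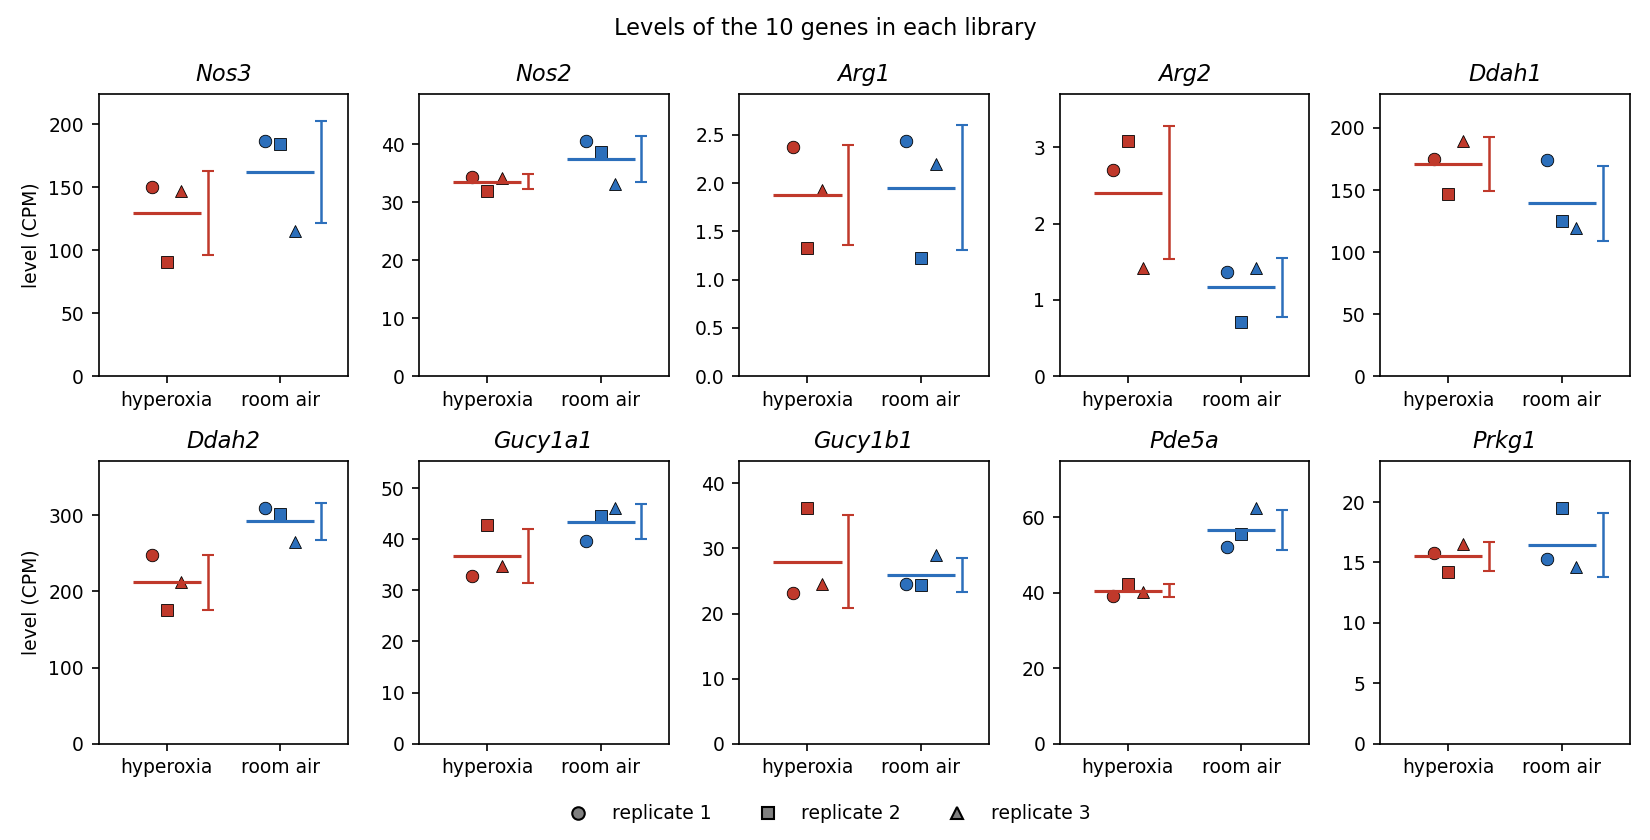
Level of each of the 10 genes in CPM (linear axes from 0), hyperoxia on the left and room air on the right; symbols are libraries, horizontal lines group means and bars SD (n = 3). Pde5a lay between 39 and 42.3 CPM in hyperoxia, below all room air libraries (52.0 to 62.4 CPM), and Ddah2 was separated in the same direction, while the groups of the other 8 genes overlapped.

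Nos3, the endothelial synthase gene (ENSMUSG00000028978, chromosome 5), was at 150.3, 91.0 and 147 CPM in the hyperoxia libraries and at 187, 184 and 115 CPM in the room air libraries. The groups overlapped, since room air 3 lay below hyperoxia 1 and 3. The mean was 129 ± 33.3 CPM in hyperoxia and 162 ± 40.6 CPM in room air (log2 fold change -0.32, SE 0.22, adjusted p = 0.398 by edgeR), and the 95% limits of the change ran from -0.80 to 0.16. The libraries lowest in Nos3 were also the lowest in summed endothelial markers within their groups. Set against the geometric mean of the 12 endothelial markers of the same library, Nos3 stood at ratios of 0.147, 0.12 and 0.155 in hyperoxia and 0.164, 0.162 and 0.132 in room air, which overlapped (difference of -0.12 on the log2 scale; exact two-sided permutation p = 0.5). The log2 fold change was -0.12 without hyperoxia 2. It was -0.83 with a term for Y-linked reads, a fit in which hyperoxia 2 is the only library set against room air. In the GENCODE M21 annotation 32.3% of the exonic bases of Nos3 overlap genes on the other strand, chiefly Atg9b, which averaged 1.97 ± 0.773 CPM in hyperoxia and 2.23 ± 0.38 CPM in room air.

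Nos2, the inducible synthase gene (ENSMUSG00000020826, chromosome 11), varied little. It had 34.4, 32.0 and 34.1 CPM in hyperoxia and 40.6, 38.6 and 33.1 CPM in room air (log2 fold change -0.16, SE 0.12, adjusted p = 0.449 by edgeR; 95% limits -0.42 to 0.10). Room air 3 fell within the hyperoxia range. Macrophage markers were highest in hyperoxia 2, the library with the lowest Nos2, and lowest in room air 1 and 2, the libraries with the highest; their part in the Nos2 level was not tested.

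**Figure D2:**
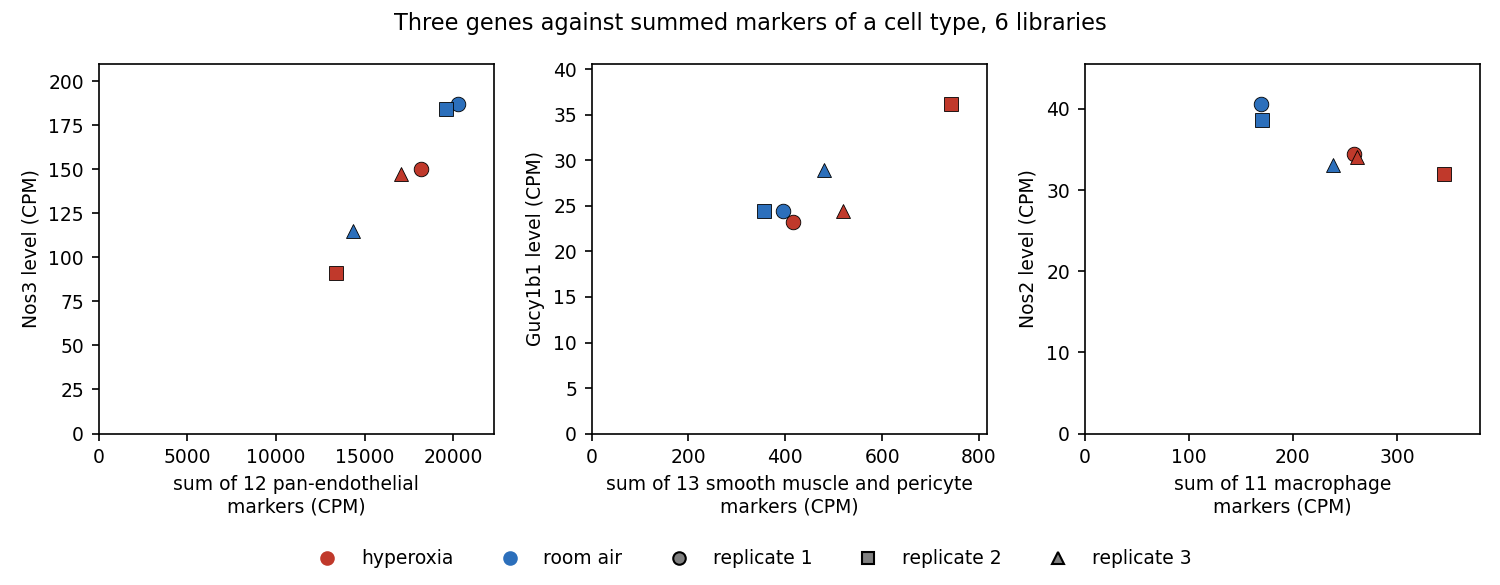
Level of Nos3, Gucy1b1 and Nos2 in CPM (vertical axes) against the summed CPM of a marker list in the same library (horizontal axes: 12 pan-endothelial, 13 smooth muscle and pericyte, 11 macrophage genes), 1 point per library, all axes linear from 0. Hyperoxia 2 had the lowest endothelial sum (13369 CPM) with the lowest Nos3 (91.0 CPM) and the highest mural sum (742 CPM) with the highest Gucy1b1 (36.2 CPM). Among the hyperoxia libraries it was also highest for summed fibroblast, macrophage and alveolar type 1 and type 2 markers.

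Both arginase genes were scarce. Arg1, the cytosolic enzyme gene (ENSMUSG00000019987, chromosome 10), was at 2.37, 1.33 and 1.93 CPM in hyperoxia and at 2.44, 1.22 and 2.2 CPM in room air, which is 54 to 98 and 48 to 101 counts. The groups covered the same range (log2 fold change -0.06, SE 0.39, adjusted p = 0.947 by edgeR), and the limits of the change were wide, -0.92 to 0.81. Its sign turned without hyperoxia 2 (0.14), room air 1 (0.13) or room air 3 (0.03), so no direction can be given. Arg2, the mitochondrial enzyme gene (ENSMUSG00000021125, chromosome 12), was at 2.71, 3.09 and 1.42 CPM in hyperoxia and at 1.36, 0.714 and 1.42 CPM in room air. Hyperoxia 1 and 2 stood above all room air libraries, and hyperoxia 3 did not. The change had the largest estimate among the members but missed the threshold (log2 fold change 1.05, SE 0.43, adjusted p = 0.156 by edgeR; 95% limits 0.10 to 1.99), and it rests on 56 to 125 counts in hyperoxia and 28 to 59 in room air. Of the exonic bases of Arg2, 28.1% overlap Vti1b or Gm48780 on the other strand; Vti1b averaged 48.3 ± 8.42 CPM in hyperoxia and 41.5 ± 5.21 CPM in room air.

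The dimethylarginine hydrolase genes were among the most abundant members. Ddah2 (ENSMUSG00000007039, chromosome 17), the form known from vascular endothelium, was at 248, 176 and 213 CPM in hyperoxia and at 309.6, 302 and 265 CPM in room air. Every hyperoxia library lay below every room air library, with hyperoxia 2 the lowest. The mean was 212 ± 36.1 CPM in hyperoxia and 292 ± 23.9 CPM in room air (log2 fold change -0.46, SE 0.14, adjusted p = 0.0614 by edgeR), just outside the threshold. It passed without hyperoxia 1 (adjusted p = 0.0446) or room air 3 (0.0404) and by DESeq2 (0.0105). It did not pass without hyperoxia 2 (log2 fold change -0.34, adjusted p = 0.186), hyperoxia 3 (0.153), room air 1 (0.152) or room air 2 (0.166), or by limma-voom (0.0521). The log2 fold change was -0.73 with a term for Y-linked reads, a fit in which hyperoxia 2 is the only library set against room air. Summed endothelial markers were lowest in hyperoxia 2 as well, and their part in the Ddah2 level was not tested. Ddah1 (ENSMUSG00000028194, chromosome 3), the form with the better established activity on dimethylarginine, was at 175, 147 and 189.8 CPM in hyperoxia and at 174, 125 and 119 CPM in room air. Room air 1 lay within the hyperoxia range, and room air 2 and 3 lay below it. The estimate ran the other way from that of Ddah2 (log2 fold change 0.29, SE 0.16, adjusted p = 0.288 by edgeR; 95% limits -0.06 to 0.64).

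The guanylate cyclase subunit genes did not pass. Gucy1a1, the alpha subunit gene (ENSMUSG00000033910, chromosome 3), was at 32.8, 42.8 and 34.8 CPM in hyperoxia and at 39.6, 44.6 and 46.1 CPM in room air (log2 fold change -0.24, SE 0.13, adjusted p = 0.29 by edgeR; 95% limits -0.52 to 0.05). Hyperoxia 2 alone reached the room air range. Gucy1b1, the beta subunit gene that carries the haem which senses nitric oxide (ENSMUSG00000028005, chromosome 3), was at 23.2, 36.2 and 24.5 CPM in hyperoxia and at 24.5, 24.4 and 29.0 CPM in room air (log2 fold change 0.11, SE 0.18, adjusted p = 0.755 by edgeR; 95% limits -0.28 to 0.49). Its highest library was hyperoxia 2, and without that library the sign turned (-0.12). Smooth muscle cells and pericytes are known for high guanylate cyclase. The 13 mural markers summed to 415, 742 and 519.5 CPM in hyperoxia and 395, 357 and 479 CPM in room air, and hyperoxia 2 was the highest here too. Of these markers 1 rose (Rgs5) and 12 did not pass. Among the hyperoxia libraries, hyperoxia 2 was also highest for summed fibroblast, macrophage and alveolar type 1 and type 2 markers. The part of these cell types in the subunit levels was not tested.

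Pde5a, the gene for the phosphodiesterase that hydrolyses cyclic GMP and is blocked by sildenafil (ENSMUSG00000053965, chromosome 3), fell. It was at 39, 42.3 and 40.2 CPM in hyperoxia and at 52.0, 55.5 and 62.4 CPM in room air. The hyperoxia libraries lay within a few CPM of each other, all below room air, where room air 3 was the highest. The mean was 40.5 ± 1.69 CPM in hyperoxia and 56.6 ± 5.29 CPM in room air, 0.716 times the room air level (log2 fold change -0.48, SE 0.11, adjusted p = 0.0183 by edgeR; 95% limits -0.73 to -0.24). The call was lost without hyperoxia 1 (adjusted p = 0.0715), hyperoxia 3 (0.0671) or room air 3 (0.0521) and with a term for Y-linked reads (0.102), a fit in which hyperoxia 2 is the only library set against room air. The log2 fold change stayed between -0.55 and -0.41 in each of these fits. Of the 13 mural markers, 1 rose (Rgs5) and 12 did not pass, with estimates of both signs and a median of 0.24 on the log2 scale. Of the 12 pan-endothelial markers, 1 fell (Egfl7) and 11 did not pass, with estimates of both signs and a median of -0.28. The part of either list in the Pde5a level was not tested.

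The genes with the most similar pattern to Pde5a were sought among 11217 genes of at least 5 CPM, by the root mean square difference of log2 CPM over the 6 libraries after centring each gene. They were Srsf10, a splicing factor gene (difference 0.0351), Cep295, a centriole gene (0.0474), and Ddx39b, an RNA helicase gene (0.0515). Srsf10 was at 66.9, 71.7 and 69.8 CPM in hyperoxia and 90.3, 99.8 and 104 CPM in room air. The 3 genes have no known place in cyclic GMP breakdown, and the likeness describes these 6 libraries only.

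Prkg1, the gene for the cyclic GMP-dependent kinase of smooth muscle and platelets (ENSMUSG00000052920, chromosome 19), was at 15.8, 14.2 and 16.5 CPM in hyperoxia and at 15.3, 19.5 and 14.6 CPM in room air. The hyperoxia and room air libraries were mixed, with room air 2 the highest (log2 fold change -0.09, SE 0.16, adjusted p = 0.784 by edgeR; 95% limits -0.44 to 0.26). The sign turned without room air 2 (0.05).

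**Figure D3:**
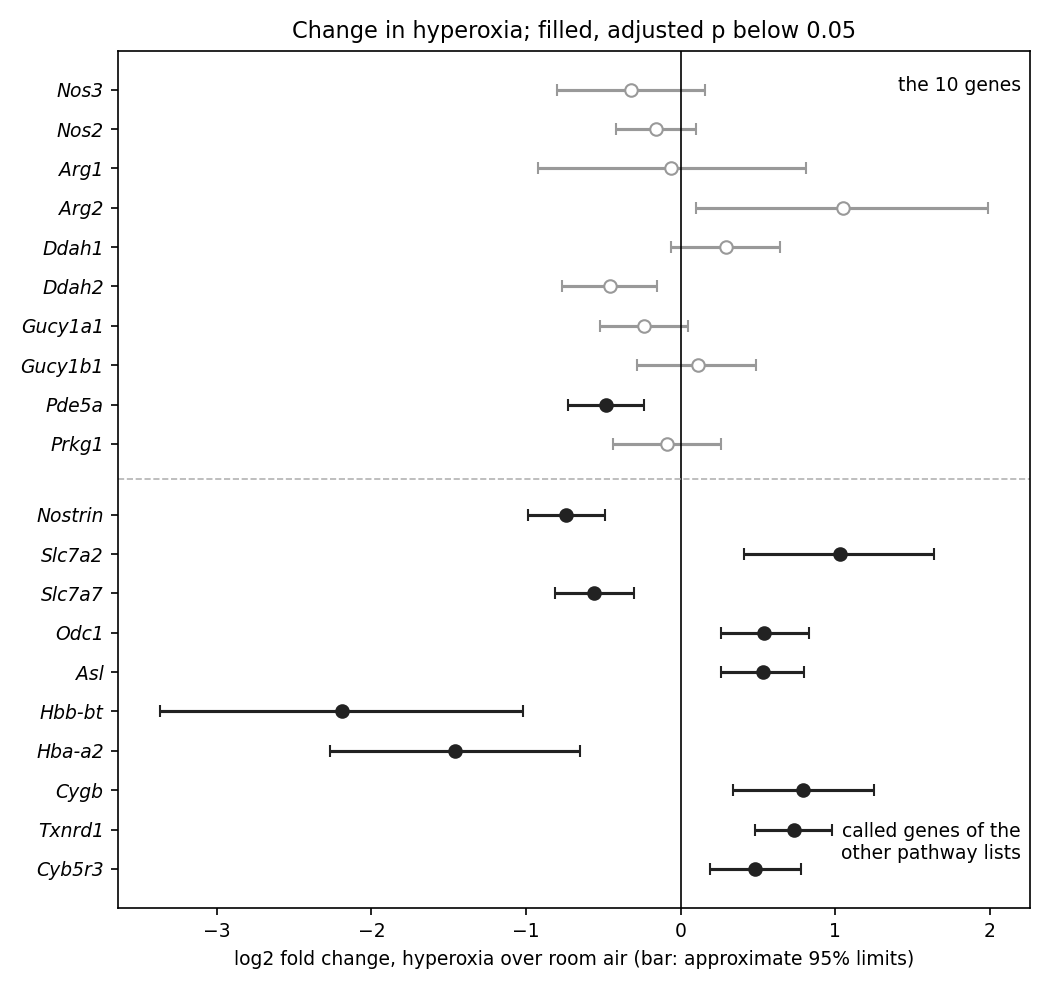
Log2 fold change, hyperoxia over room air, of the 10 genes (upper block) and of the called genes of 5 other pathway lists (lower block); points are edgeR estimates, bars approximate 95% limits, and filled points have an adjusted p below 0.05. Pde5a is the filled point among the 10 at -0.48, and Arg2 has the highest estimate, 1.05, with limits from 0.10 to 1.99.

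Ratios of related members within a library do not depend on library scaling, and 5 were compared; they were chosen after the levels had been seen, and with 3 libraries a group the exact two-sided permutation test cannot go below 0.1. Ddah1 stood to Ddah2 at 0.706, 0.834 and 0.892 in hyperoxia and at 0.562, 0.414 and 0.448 in room air, so that the groups did not overlap. The difference was 0.78 on the log2 scale (mean -0.31 ± 0.17 in hyperoxia and -1.09 ± 0.23 in room air, SD, n = 3 each; exact p = 0.1, 0.167 adjusted over the 5 ratios).

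Gucy1a1 stood to Gucy1b1 at 1.42, 1.18 and 1.42 in hyperoxia and at 1.61, 1.83 and 1.59 in room air, again without overlap, and lower in hyperoxia (difference -0.33 on the log2 scale; exact permutation p = 0.1, adjusted 0.167). Arg2 stood to Arg1 at 1.14, 2.31 and 0.737 in hyperoxia and at 0.554, 0.583 and 0.648 in room air (difference 1.07 on the log2 scale; exact permutation p = 0.1, adjusted 0.167). All 3 hyperoxia libraries were above room air for the arginases, though hyperoxia 2 was well above hyperoxia 1 and 3, and the difference ran from 0.63 to 1.45 with a library left out. Nos2 stood to Nos3 at 0.229, 0.352 and 0.232 in hyperoxia and at 0.218, 0.209 and 0.287 in room air, which overlapped (exact permutation p = 0.5). Among single genes tested, 14.4% were lower and 16.5% higher in hyperoxia without overlap. The share for other pairs of genes was not computed.

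**Figure D4:**
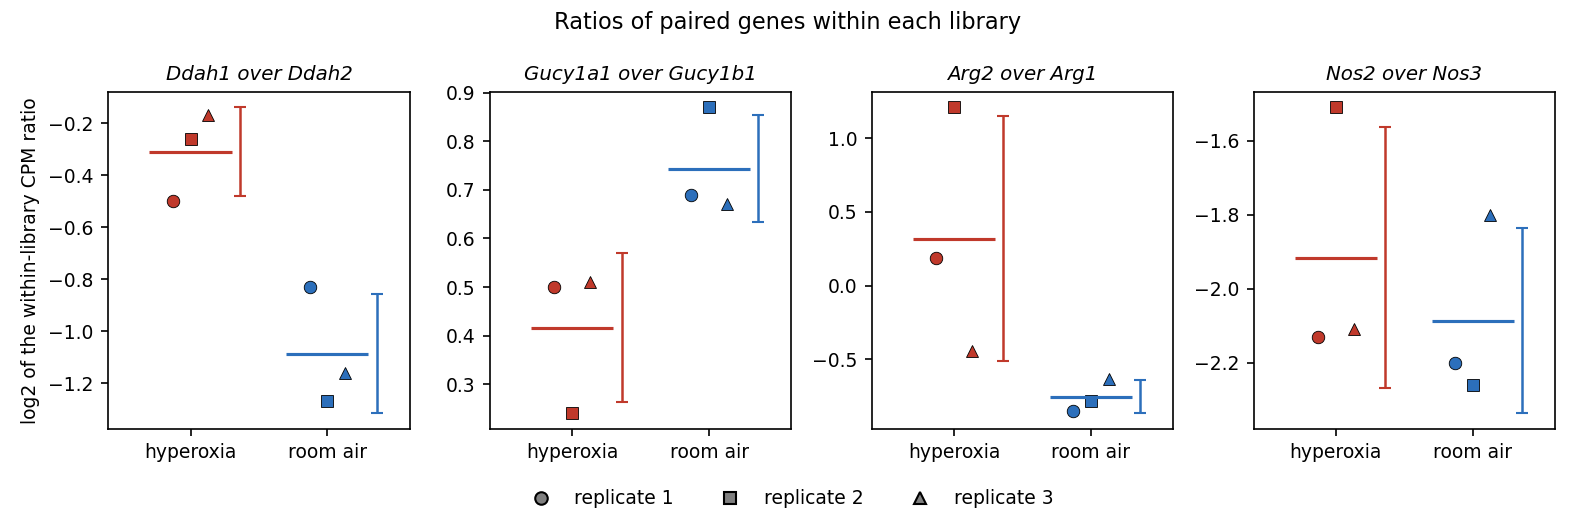
Log2 of the ratio of 2 genes' CPM within a library for 4 pairs, hyperoxia on the left and room air on the right; symbols are libraries, lines means and bars SD (n = 3), and the vertical axes do not start at 0. The groups are apart for the Ddah, guanylate cyclase and arginase pairs and overlap for Nos2 over Nos3.

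Per kilobase of exon the members spanned a wide range of levels. Ddah2 came first, with 133 ± 22.7 RPKM in hyperoxia and 183 ± 15 RPKM in room air, above every other member in all 6 libraries. Ddah1 (42.8 ± 5.49 RPKM in hyperoxia, 35 ± 7.58 RPKM in room air) and Nos3 (31.3 ± 8.07 RPKM in hyperoxia, 39.2 ± 9.82 RPKM in room air) followed, and their order could not be told in room air, where their ranges overlapped. Nos2 averaged 7.6 ± 0.301 RPKM in hyperoxia and 8.48 ± 0.886 RPKM in room air, below Nos3 in all 6 libraries.

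Gucy1b1 (7.12 ± 1.83 RPKM in hyperoxia, 6.61 ± 0.663 RPKM in room air) overlapped Nos2 in hyperoxia, and overlapped Gucy1a1 (5.28 ± 0.757 RPKM in hyperoxia, 6.23 ± 0.49 RPKM in room air) in both groups. Pde5a came next (4.12 ± 0.172 RPKM in hyperoxia, 5.76 ± 0.538 RPKM in room air). Its range overlapped that of Gucy1a1 in room air only, though within each of the 6 libraries it was below Gucy1a1. Prkg1, Arg2 and Arg1 were lowest, between 0.5 and 2.16 RPKM in single libraries. Arg2 overlapped Prkg1 in hyperoxia only and Arg1 in both groups. RPKM depends on the exon lengths of the GENCODE M21 annotation, from 1428 bases for Arg2 to 10861 bases for Prkg1. These lengths include the bases that overlap other genes, 32.3% in Nos3 and 28.1% in Arg2. Whether reads there were counted is not known, so the places of Nos3 and Arg2 in this order are uncertain.

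The other genes of the route were read from 5 lists with 79 genes, of which 71 were tested. Of these, 6 rose, 4 fell and 61 did not pass. Their log2 fold changes had a median of 0.02. That is 10 of 71 where 11.2% of all genes were called in either direction, which is near the background. Among 18 partners and cofactor enzymes of the synthases, 1 fell and 17 did not pass. The gene that fell was Nostrin, whose product binds eNOS and moves it off the membrane, at 82.8, 71.8 and 68.3 CPM in hyperoxia and 129.9, 128 and 114 CPM in room air (log2 fold change -0.74, SE 0.11, adjusted p = 0.00255 by edgeR). All hyperoxia libraries were below room air, and the call held in each fit with a library left out (log2 fold change -0.82 to -0.69). DESeq2 called 5 genes of this list lower (Nostrin, Dynll1, Calm2, Calm3 and Gchfr), and limma-voom called 1. Dynll1 was just outside the threshold in the main fit (log2 fold change -0.41, adjusted p = 0.0547 by edgeR). It also passed under upper-quartile scaling, library size only, either other filter, and without room air 3, alone or with hyperoxia 2. Cav1, which holds eNOS inactive in caveolae, averaged 1775 ± 396 CPM in hyperoxia and 2201 ± 241 CPM in room air (adjusted p = 0.334), and Gch1, the first enzyme of tetrahydrobiopterin synthesis, 14.7 ± 2.56 CPM in hyperoxia and 17.7 ± 1.2 CPM in room air (adjusted p = 0.338). Nos1, the neuronal synthase gene, was below the filter, at no more than 0.204 CPM in any library.

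Of 13 tested genes of arginine supply and use, 3 rose, 1 fell and 9 did not pass (median log2 fold change 0.23). Slc7a2, a cationic amino acid transporter gene that macrophages also use, rose to 18.1, 33.8 and 18.8 CPM in hyperoxia, against 10.7, 8.39 and 15.6 CPM in room air (log2 fold change 1.03, SE 0.28, adjusted p = 0.0387 by edgeR). Hyperoxia 2 was highest, as it was for summed macrophage markers (345 CPM). Among the hyperoxia libraries it was also highest for summed mural, fibroblast and alveolar type 1 and type 2 markers. The part of these cell types was not tested. Slc7a2 did not pass without hyperoxia 2 (log2 fold change 0.68, adjusted p = 0.105), room air 1 (0.122) or room air 2 (0.146), or when scaled by library size only (0.0568). Odc1, the ornithine decarboxylase gene that leads from the arginase product to polyamines, averaged 150.4 ± 10.8 CPM in hyperoxia and 103 ± 15.7 CPM in room air (log2 fold change 0.54, adjusted p = 0.0223), and missed the threshold without hyperoxia 2 (0.0597), hyperoxia 3 (0.0922), room air 1 (0.059) or room air 2 (0.0751).

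Asl, the argininosuccinate lyase gene that rebuilds arginine from citrulline, averaged 26.0 ± 1.28 CPM in hyperoxia and 18.0 ± 0.7 CPM in room air (log2 fold change 0.53, adjusted p = 0.0196 by edgeR). Leaving out any library except room air 1 brought its adjusted p to between 0.0534 and 0.0654, while the log2 fold change stayed between 0.49 and 0.55. Ass1, the synthase of the same cycle, was higher in every hyperoxia library without passing in the main fit (53.4 ± 0.936 CPM in hyperoxia, 39.6 ± 7.03 CPM in room air, adjusted p = 0.0634). Ass1 passed by DESeq2, with no filter on low counts, and without room air 1. Slc7a7, a gene for export of cationic amino acids, fell, with 36.9 ± 1.23 CPM in hyperoxia and 54.5 ± 6.31 CPM in room air (log2 fold change -0.56, adjusted p = 0.0113), and missed the threshold without hyperoxia 3 (0.0501).

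Beyond the members, cyclic GMP genes did not pass in the main fit. In other fits Npr2 passed as higher (no filter on low counts, or without room air 3). Pde1c passed as lower without hyperoxia 2, and also with both hyperoxia 2 and room air 3 left out. Of 14 genes for its synthesis, hydrolysis and export and of 13 partners and substrates of the kinase, edgeR called 0. At an unadjusted p below 0.05, the first list had 1 higher gene (Npr2) and the second 2 lower (Vasp and Rgs2); DESeq2 called 0 in the first and 1 lower in the second, and limma-voom called 0 in both. Npr1, the receptor gene through which natriuretic peptides make cyclic GMP, was at 333 ± 65.2 CPM in hyperoxia and 414 ± 84.1 CPM in room air (adjusted p = 0.329). Pde3a, a phosphodiesterase gene that cyclic GMP inhibits, was at 227 ± 39.6 CPM in hyperoxia and 277 ± 46.8 CPM in room air (adjusted p = 0.305). Vasp, a kinase substrate at the actin skeleton, had 236 ± 24.8 CPM in hyperoxia and 288 ± 21.3 CPM in room air (adjusted p = 0.168), and Atp2a2, the calcium pump gene of the reticulum, 309 ± 23.1 CPM in hyperoxia and 289.5 ± 19.7 CPM in room air (adjusted p = 0.677).

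Of 13 genes that remove nitric oxide or its adducts, 3 rose, 2 fell and 8 did not pass. Txnrd1, the thioredoxin reductase gene, rose to 151, 153 and 184 CPM in hyperoxia, against 104, 92.4 and 97.9 CPM in room air (log2 fold change 0.73, SE 0.12, adjusted p = 0.00284 by edgeR). It passed with any library left out, and it is also a known NRF2 target. Cygb, the cytoglobin gene, averaged 14.1 ± 1.03 CPM in hyperoxia and 8.15 ± 2.03 CPM in room air (log2 fold change 0.79, adjusted p = 0.0331), and missed without hyperoxia 1 (0.103), hyperoxia 3 (0.0875), room air 2 (0.0719) or room air 3 (0.066) and with a term for Y-linked reads (0.1). Cyb5r3, the reductase gene that keeps haem proteins reduced, was named after its values were seen; it rose (615 ± 66.7 CPM in hyperoxia, 439.8 ± 47.0 CPM in room air, adjusted p = 0.0438) and missed whichever library was left out (0.053 to 0.167).

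The genes that fell in that list were for haemoglobin chains. Hbb-bt averaged 0.696 ± 0.526 CPM in hyperoxia and 3.2 ± 1.01 CPM in room air (log2 fold change -2.19, adjusted p = 0.024 by edgeR), and Hba-a2 1.02 ± 0.198 CPM in hyperoxia and 2.8 ± 0.787 CPM in room air (log2 fold change -1.46, adjusted p = 0.0289). Near-identical copies of these genes can share reads. The more abundant Hba-a1 averaged 7.47 ± 3.64 CPM in hyperoxia and 16.3 ± 5.36 CPM in room air (adjusted p = 0.0614 by edgeR). Hbb-bs averaged 7.43 ± 4.58 CPM in hyperoxia and 15.9 ± 4.32 CPM in room air, with overlapping groups (adjusted p = 0.0789 by edgeR). Neither passed in the main fit, while DESeq2 and limma-voom called both lower. Hbb-bt missed without hyperoxia 3 (0.0848), room air 1 (0.0558) or room air 2 (0.116), and Hba-a2 passed only without room air 3 among the fits with a library left out (up to 0.117 in the others). The 7 erythroid markers, which include the 4 haemoglobin genes, summed to 11 to 27.5 CPM in hyperoxia and 32.7 to 52.2 CPM in room air.

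**Figure D5:**
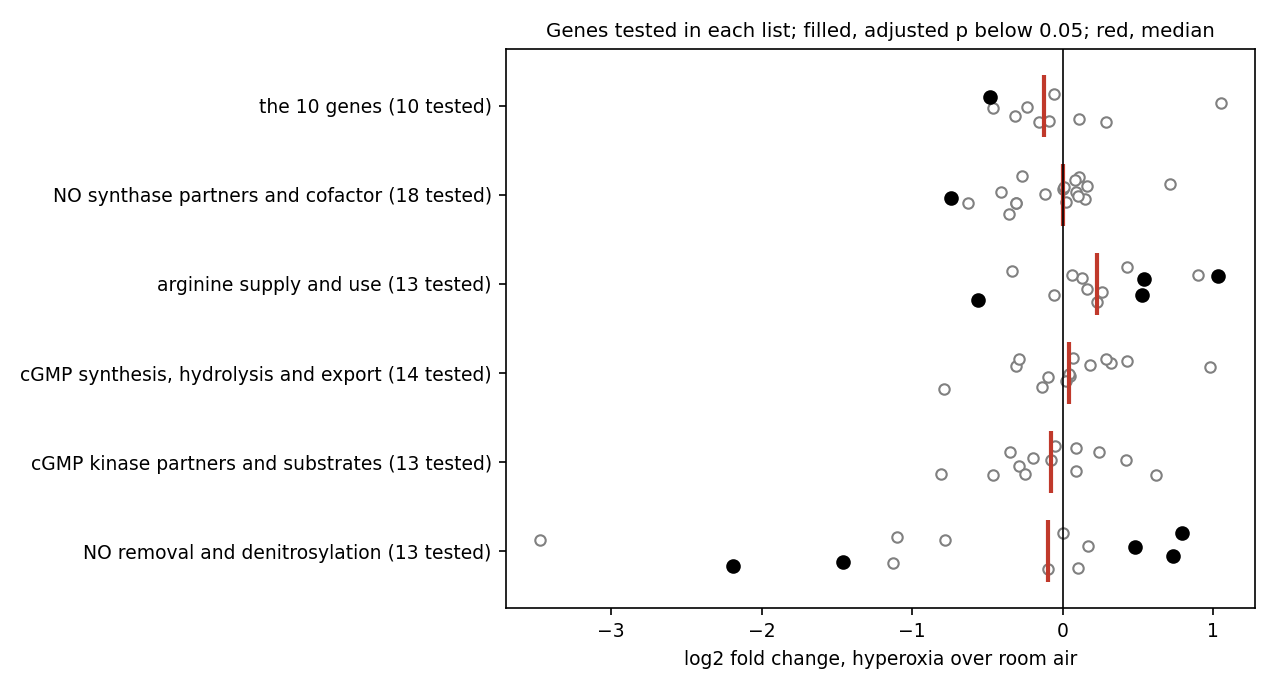
Log2 fold change, hyperoxia over room air, of each tested gene of the 10 and of the 5 other lists; filled points have an adjusted p below 0.05 and red lines are list medians (vertical scatter has no meaning). Called genes lie in the lists of synthase partners (1), arginine supply (4) and nitric oxide removal (5), and the cyclic GMP lists hold none.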

How the data were processed

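The authors deposited raw counts per Ensembl gene, read here as whole-number counts. The submitters' processing notes name GRCm39 as the build and, with no role stated, the tools HISAT2 2.2.1, Subread 2.0.6 with featureCounts, and DESeq2. Annotation release, use of strand and counting of multiply mapped reads were not given in the sources used here. Symbols matched 51948 of 56941 IDs. Exon lengths and overlaps came from GENCODE M21 (GRCm38), promoter windows from RefSeq GRCm38.p6. Members and lists were chosen with earlier results of these data known.

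Genes were kept by filterByExpr (minimum count 10, total 15), scaled by TMM and tested with edgeR 4.0.16 in R 4.3.3 (robust quasi-likelihood, no covariate), hyperoxia against room air, 3 libraries each; the test was tried on simulated counts with 200 changed genes. Standard errors and 95% limits follow from the F statistic and are approximate. RPKM and ratios were computed from CPM. Named were all members and, from each list, up to 4 called genes by size of change or else its 2 most abundant. The 3 genes most like each called member were named too. Ass1, Cav1, Gch1, Nos1, Cyb5r3, Npr2, Rgs2, Pde1c, Atg9b, Vti1b, Pde2a, Tagln, Pln, Gp1bb and Hopx were added after their values were seen. So were Dynll1, Calm2, Calm3, Gchfr, Hba-a1 and Hbb-bs. Alternatives were other scalings, filters, thresholds and tests (DESeq2 1.42.0, limma-voom 3.58.1), each library left out, a replicate block, Y-linked read status and, added later, hyperoxia 2 and room air 3 left out together. Within a group, counts of any pair of libraries differed beyond sampling noise (chi-square over its degrees of freedom 15 or more), and each was kept as its own replicate.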

Additional observations from a re-analysis of the deposited data

How the results depend on the processing

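The 1 member called lower (Pde5a) became 2 (with Ddah2) under upper-quartile scaling, library size only, no filter on low counts, a filter of 1 CPM in 3 libraries, DESeq2, an adjusted p below 0.1, or hyperoxia 2 and room air 3 left out together, and 0 at an adjusted p below 0.01. With a library left out it was 0 to 1, and without hyperoxia 1 or without room air 3 the 1 gene was Ddah2, not Pde5a. The term for Y-linked reads sets hyperoxia 2 alone against room air, and gave log2 fold changes of -0.73 for Ddah2 and -0.42 for Pde5a. In every setting 0 were called higher. The 6 other pathway genes called higher became 1 at 0.01 and 1 to 4 with a library left out; the 4 lower became 8 with no filter, 11 with DESeq2, 7 with limma-voom, 10 at 0.1, 1 at 0.01 and 1 to 6 with a library left out. Signs turned, all far from the threshold, for Arg1 (-0.30 to 0.14 with a library left out), Gucy1b1 (-0.12 to 0.23), Prkg1 (-0.17 to 0.05), Atg9b (-0.46 to 0.10) and the ratio of Nos2 to Nos3 (-0.03 to 0.31), and without hyperoxia 2 and room air 3 for Arg1 (0.22), Gucy1b1 (-0.05) and Atg9b (0.03); the cause was not tested. Replicate numbers did not pair the libraries (correlations of deviations 0.1117, -0.0389 and -0.0899); with the replicate block Pde5a kept its call (adjusted p = 0.0417), and the calls of Slc7a2 (0.0813), Hba-a2 (0.0568), Ddx39b (0.0604) and Cyb5r3 (0.0753) were lost. Low counts limit the arginase genes.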

Other observations

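Pde2a, a cyclic GMP-stimulated phosphodiesterase gene known from endothelium, was at no more than 0.0485 CPM in the hyperoxia libraries and 0.051 CPM in the room air libraries. In GENCODE M21, Gm45837, on the same strand, covers 64.3% of its exonic bases. Another 3 genes with overlaps at least as large were chosen after their values were seen. Tagln, a smooth muscle gene with 67.9% overlap, had 7 to 31 counts in hyperoxia and 7 to 16 in room air, while Acta2 and Myh11 averaged far more. Pln, the phospholamban gene, with 64.7% overlap, had 0 to 5 counts in hyperoxia and 3 to 6 in room air, and the platelet gene Gp1bb, with 92.9% overlap, had 0 counts in all 6 libraries. Genes with smaller overlaps were not all near 0: Hopx, with 27.2%, averaged 164 CPM in hyperoxia and 65.2 CPM in room air. Whether overlaps took reads from any of these genes was not tested.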
